A study of Saccharomyces cerevisiae with 8 samples.

Results

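The 10 genes described here encode the core of glucose repression in budding yeast. They are the zinc finger repressors MIG1, MIG2 and MIG3, the phosphatase regulatory subunits REG1 and REG2, and the subunits of the Snf1p kinase, which are SNF1, SNF4, SIP1, SIP2 and GAL83. They were taken by gene symbol from the annotation of the array, on which each has 1 probe set, and make up 10 of the 5449 genes tested. Transcript levels were read on 8 arrays of the Affymetrix Yeast Genome 2.0 type, which report a transcript through a set of short probes. The arrays hold 3 Δpde2 cultures (Δpde2::KanMx), 2 Δpde2Δtpk3 cultures (Δpde2::HIS3 Δtpk3::KanMx) and 3 wild type cultures. All 3 strains are labelled as of the BY4741 background, a laboratory strain, and were grown for 24 h in rich glucose medium with 4 mM cAMP, so no culture without added cAMP was analysed here. The mutants are MATa and carry his3, leu2, met15 and ura3 alleles, with the HIS3 marker in Δpde2Δtpk3 only. Their deletions were made with different marker genes, and each genotype stands for 1 strain. PDE2 encodes the high affinity cAMP phosphodiesterase, and TPK3 encodes a catalytic subunit of protein kinase A (PKA), so the comparison of Δpde2 with Δpde2Δtpk3 cells asks what depends on Tpk3p when cAMP is high.

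When glucose is plentiful, Mig1p sits in the nucleus and, with the Cyc8p-Tup1p co-repressor, shuts genes for the use of other carbon sources. Mig2p and Mig3p are related repressors with overlapping targets. When glucose runs low the Snf1p kinase, the yeast AMP-activated protein kinase, becomes active, phosphorylates Mig1p and releases repression, and the Glc7p phosphatase guided by Reg1p reverses this. The cultures were harvested around the diauxic shift, the stage at which yeast leaves fermentation for respiration. These are transcript levels, and they do not report kinase activity, phosphorylation or the location of any protein.

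All levels below are log2 values after quantile normalization, and a difference of 1 on this scale is 1 doubling. Levels of different genes come from different probes and cannot be set against each other. Each difference comes from a limma fit over the 3 strains, with its standard error (SE) and with a p that was corrected for the 5449 genes tested (Benjamini-Hochberg). Genes were called where this adjusted p was under 0.05. In RNA from whole cultures, fewer cells with a transcript and less of it in each cell cannot be told apart. Nothing in the labels ties the replicates of a strain to separate days or stocks, so p-values measure the spread between these arrays.

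Across the series the arrays differed in quality. Wild type replicate 1 correlated with the other wild type arrays at 0.868 and 0.878 over all genes, while the 3 Δpde2 arrays correlated at 0.994 to 0.995 and the 2 Δpde2Δtpk3 arrays at 0.977. The residual SD was 0.604 for wild type replicate 1 and between 0.0983 and 0.340 for the other arrays. PDE2 read 4.89 to 5.18 in the 5 mutant arrays and 9.13 to 10.73 in wild type, and TPK3 read 4.37 and 4.97 in Δpde2Δtpk3 and 8.57 to 8.84 elsewhere, as the genotypes require. Of the 4 markers of the other mating type (MF(ALPHA)1, MF(ALPHA)2, STE3 and SAG1), all 4 were highest in wild type replicate 1. Their mean level ran from 6.96 to 7.09 in Δpde2, from 6.83 to 6.85 in Δpde2Δtpk3 and from 7.42 to 9.12 in wild type. The mean level of 6 markers of mating type a ran from 11.89 to 12.11, 11.72 to 12.01 and 11.48 to 11.67. Of these, MFA1, MFA2, STE2, BAR1 and AGA2 were higher in wild type replicate 1 than in the other wild type arrays. STE6 was lowest in wild type replicate 1 (9.25). The part of this array in the results was not tested beyond leaving it out, also before normalization, and giving each array a weight.

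Among the 10 genes the repressors MIG2 and MIG3 rose in Δpde2 cells, and REG2 and SIP2 fell, against both other strains. SIP1 fell in Δpde2 cells against wild type. MIG1, REG1, SNF1, SNF4 and GAL83 were called in no comparison. Between Δpde2 and Δpde2Δtpk3 cells 4 of the 10 were called, 2 higher and 2 lower, where 13% of all genes tested were called (5.56% higher and 7.41% lower). Between Δpde2 and wild type cells 5 of the 10 were called, 2 higher and 3 lower, where 41.4% of all genes were called (19.5% higher and 21.9% lower). In Δpde2Δtpk3 cells MIG2 alone of the 10 was called against wild type, being higher. There 2.72% of all genes were called (1.03% higher and 1.69% lower). At these backgrounds the share called among the 10 lay close to that of all genes for Δpde2 against wild type. The median size of the difference over the 10 genes was 0.30 for Δpde2 against Δpde2Δtpk3, 0.74 for Δpde2 against wild type and 0.23 for Δpde2Δtpk3 against wild type. Over all genes it was 0.32, 0.50 and 0.28 for the same comparisons. The study itself listed MIG2, MIG3, REG2 and SIP2 among genes that changed on these arrays, so their changes here are not independent evidence. The headings of its supplementary lists place MIG2 and MIG3 with lower genes and REG2 and SIP2 with higher genes in Δpde2 cells. Those headings are opposite to the values here, while the study's main text gives MIG2 as upregulated.

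**Figure D1:**
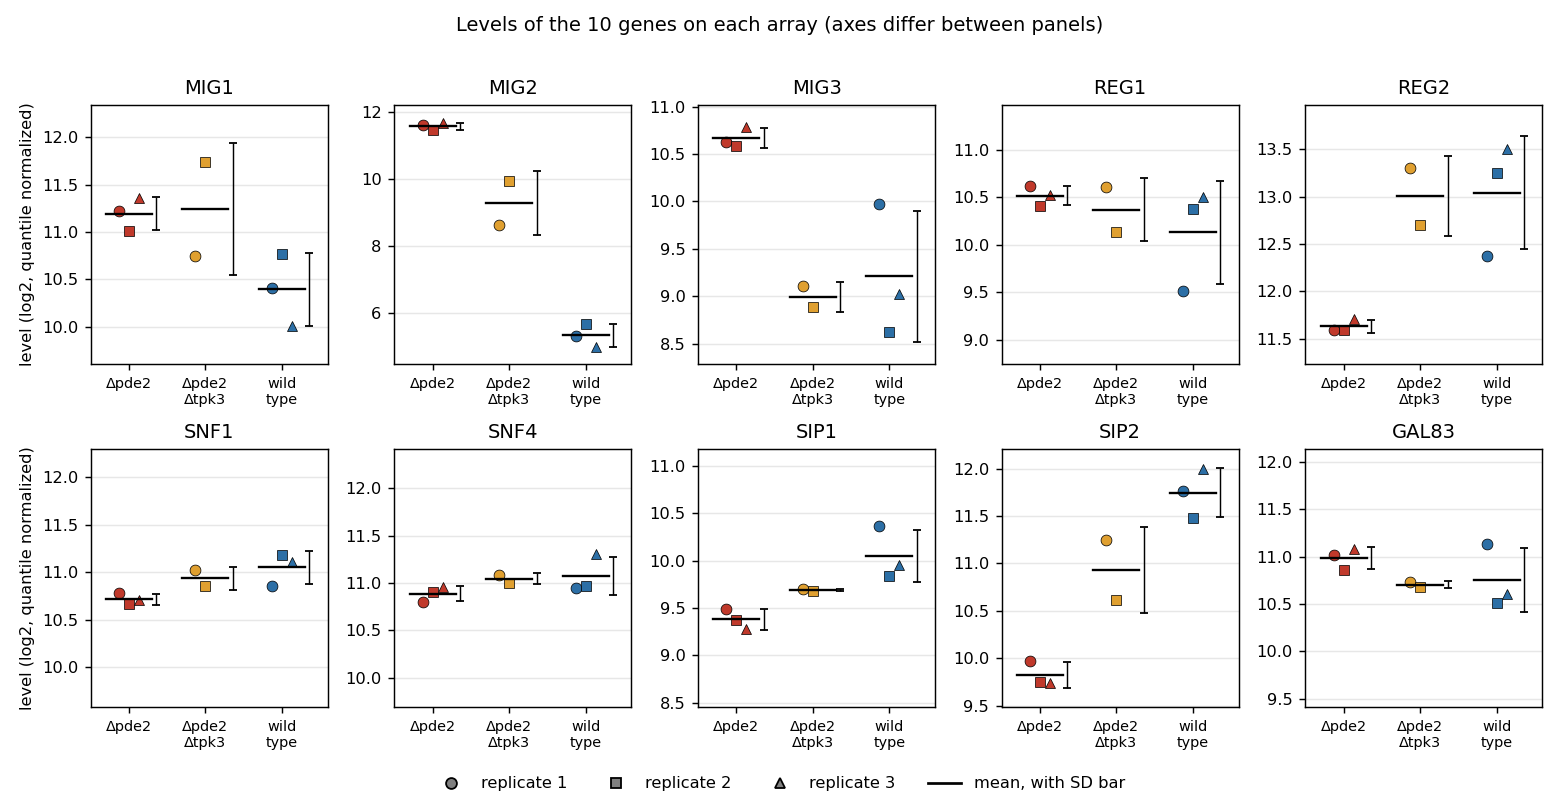
Level of each of the 10 genes on each array (log2, quantile normalized; each panel has its own axis), with Δpde2, Δpde2Δtpk3 and wild type from left to right. Symbols mark replicate numbers, lines mark strain means and bars mark 1 SD to either side (n = 3, 2 and 3); MIG2 separates all 3 strains, whereas the levels of REG1 overlap.

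MIG2 showed the widest differences of the group. It encodes a repressor that acts beside Mig1p on SUC2 and other glucose-repressed genes, and its own transcription is known to rise with glucose. MIG2 read 11.61, 11.47 and 11.68 in Δpde2 cells, 8.61 and 9.96 in Δpde2Δtpk3 cells, and 5.32, 5.66 and 4.99 in wild type cells. The 3 strains did not overlap, with Δpde2 highest, Δpde2Δtpk3 between and wild type lowest. Means were 11.58 ± 0.11 in Δpde2 (SD, n = 3), 9.29 ± 0.95 in Δpde2Δtpk3 (SD, n = 2) and 5.32 ± 0.33 in wild type (SD, n = 3).

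MIG2 exceeded its wild type level by 6.26 in Δpde2 cells (SE 0.34, limma adjusted p = 0.000148), which is 76.8-fold, or 60.7-fold to 97.1-fold at 1 SE to either side. No other gene of the 5449 had a larger increase in that comparison. The wild type levels of MIG2, 4.99 to 5.66, lay near those that probes of deleted genes gave. PDE2 read 4.89 to 5.18 in the mutants, and TPK3 read 4.37 and 4.97 in Δpde2Δtpk3. Probes differ between genes and there are no detection calls, so whether MIG2 stood above background in wild type cells was not tested. The size of a fold against such a level, and its rank, are uncertain for that reason. In Δpde2Δtpk3 cells MIG2 was 3.96 higher than in wild type cells (SE 0.38, limma adjusted p = 0.00622). That is 15.6-fold, with the same limit. Both of these calls held with each of the 8 arrays left out in turn, with differences of 6.10 to 6.43 for Δpde2 and 3.29 to 4.63 for Δpde2Δtpk3. The call for Δpde2Δtpk3 was lost under 2 of the 8 settings that tested it, among them the fit of only the 2 strains compared (adjusted p = 0.100), and its adjusted p ran from 0.000237 to 0.100 over these settings.

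Between the mutants, MIG2 was 2.30 higher in Δpde2 than in Δpde2Δtpk3 cells (SE 0.38, limma adjusted p = 0.0159, 4.92-fold). The difference was 1.63 without Δpde2Δtpk3 replicate 1 and 2.97 without Δpde2Δtpk3 replicate 2, and the call held in both cases. It was lost without Δpde2 replicate 1, 2 or 3, with adjusted p of 0.0722, 0.0575 and 0.0780, while the difference stayed between 2.25 and 2.36. Far fewer genes were called in the whole table without those arrays, between 53 and 129 in place of 707.

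MIG3, which encodes the third member of the repressor family, was also higher in Δpde2 cells. MIG3 read 10.63, 10.59 and 10.79 in Δpde2 cells, 9.11 and 8.88 in Δpde2Δtpk3 cells, and 9.98, 8.62 and 9.03 in wild type cells. The Δpde2 arrays lay above all others, and the arrays of the other two strains overlapped, with wild type replicate 1 higher than the other wild type arrays by 1.15. MIG3 was 1.67 higher in Δpde2 than in Δpde2Δtpk3 cells (SE 0.36, limma adjusted p = 0.0281, 3.19-fold) and 1.46 higher than in wild type cells (SE 0.32, limma adjusted p = 0.0106, 2.75-fold).

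The MIG3 difference from wild type was called with each array left out in turn, between 1.17 without wild type replicate 2 and 1.84 without wild type replicate 1. The difference from Δpde2Δtpk3 stayed between 1.56 and 1.78, but its call was lost without Δpde2 replicate 1, 2 or 3 (adjusted p = 0.0966, 0.0861 and 0.110) and without Δpde2Δtpk3 replicate 1 or 2 (adjusted p = 0.0945 and 0.154). Between Δpde2Δtpk3 and wild type the MIG3 difference was -0.21 (SE 0.36, adjusted p = 0.744), with a 95% confidence interval of -1.05 to 0.63. It was 0.17 without wild type replicate 1, so its sign rests on that array.

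MIG1, the repressor that Snf1p phosphorylates, was not called in any comparison. MIG1 read 11.22, 11.01 and 11.36 in Δpde2 cells, 10.75 and 11.74 in Δpde2Δtpk3 cells, and 10.41, 10.77 and 10.01 in wild type cells. The Δpde2 arrays lay above the wild type arrays, and the 2 Δpde2Δtpk3 arrays were 0.98 apart and reached from the wild type range to beyond that of Δpde2. The difference between Δpde2 and Δpde2Δtpk3 was -0.048 (SE 0.33, adjusted p = 0.944).

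Against wild type, MIG1 was 0.80 higher in Δpde2 cells (SE 0.29, 95% confidence interval 0.11 to 1.49), which missed the threshold with an adjusted p of 0.0633 in limma. That value passed without wild type replicate 2 (0.99, adjusted p = 0.0451) and without Δpde2Δtpk3 replicate 1 or 2 (0.80, adjusted p = 0.0322 for each), and its adjusted p ran from 0.0322 to 0.175 over the 8 arrays left out. In Δpde2Δtpk3 cells MIG1 was 0.85 higher than in wild type (SE 0.33, limma adjusted p = 0.210), and without replicate 2 of Δpde2Δtpk3 this became 0.36.

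**Figure D2:**
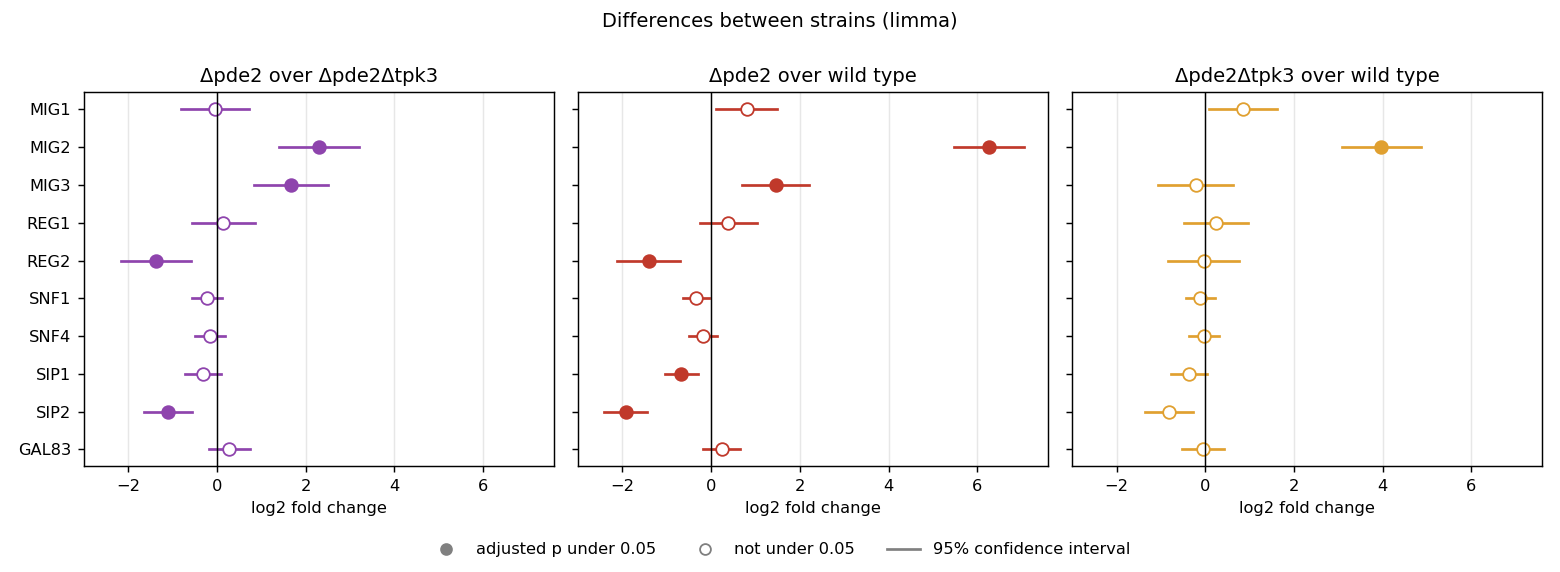
Difference of each gene in each comparison (log2 fold change, points) with its 95% confidence interval (lines), for Δpde2 over Δpde2Δtpk3, Δpde2 over wild type and Δpde2Δtpk3 over wild type. Filled points have an adjusted p under 0.05; the difference of 6.26 for MIG2 against wild type stands far from those of the other genes.

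The REG genes encode regulatory subunits of the Glc7p protein phosphatase. Reg1p directs Glc7p to Snf1p and so holds the kinase inactive in high glucose, and Reg2p is a related subunit with a lesser part in the same task. REG2 read 11.59, 11.59 and 11.71 in Δpde2 cells, 13.30 and 12.70 in Δpde2Δtpk3 cells, and 12.37, 13.25 and 13.50 in wild type cells. All 3 Δpde2 arrays lay below the 5 others, and the arrays of Δpde2Δtpk3 and wild type overlapped.

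REG2 fell 2.59-fold in Δpde2 relative to Δpde2Δtpk3 cells (log2 fold change -1.37, SE 0.34, limma adjusted p = 0.0416). Against wild type the log2 fold change was -1.41 (SE 0.30, limma adjusted p = 0.00964), or 2.66-fold lower, and this call held with each of the 8 arrays left out, between -1.74 and -1.18. The call against Δpde2Δtpk3 was held only without wild type replicate 1 or 3. It was lost without wild type replicate 2 (adjusted p = 0.0593), without any Δpde2 array (adjusted p = 0.129, 0.127 and 0.128 for replicates 1, 2 and 3) and without either Δpde2Δtpk3 array (adjusted p = 0.193 and 0.105), with differences between -1.67 and -1.07. Between Δpde2Δtpk3 and wild type the difference in REG2 was -0.039 (SE 0.34, adjusted p = 0.953), with a 95% confidence interval of -0.83 to 0.75, and wild type replicate 1 read 1.00 below the mean of the other wild type arrays.

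REG1 differed less between strains than among the wild type arrays. It read 10.62, 10.41 and 10.53 in Δpde2 cells, 10.61 and 10.14 in Δpde2Δtpk3 cells, and 9.51, 10.38 and 10.50 in wild type cells. The ranges of all 3 strains overlapped, and wild type replicate 1 was the lowest array. REG1 differed by 0.15 between Δpde2 and Δpde2Δtpk3 (SE 0.31, adjusted p = 0.805, 95% confidence interval -0.57 to 0.87) and by 0.39 between Δpde2 and wild type (SE 0.27, adjusted p = 0.279, 95% confidence interval -0.25 to 1.03). Without wild type replicate 1 the difference from wild type was 0.080. In Δpde2Δtpk3 cells REG1 stood 0.24 above wild type (SE 0.31, adjusted p = 0.658, 95% confidence interval -0.48 to 0.96).

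Snf1p is the catalytic subunit of the kinase and Snf4p its regulatory subunit, which binds adenine nucleotides and relieves autoinhibition. SNF1 read 10.78, 10.66 and 10.70 in Δpde2 cells, 11.02 and 10.85 in Δpde2Δtpk3 cells, and 10.86, 11.18 and 11.11 in wild type cells. The highest Δpde2 array lay 0.073 below the lowest Δpde2Δtpk3 array and 0.079 below the lowest wild type array, and the other two strains overlapped.

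SNF1 differed by -0.22 between Δpde2 and Δpde2Δtpk3 (SE 0.14, adjusted p = 0.337, 95% confidence interval -0.55 to 0.10). Against wild type the SNF1 difference in Δpde2 was -0.34 (SE 0.12, 95% confidence interval -0.63 to -0.044), with a limma adjusted p of 0.0658. For Δpde2Δtpk3 against wild type it was -0.11 (SE 0.14, adjusted p = 0.649, 95% confidence interval -0.44 to 0.21). The difference of Δpde2 from wild type was called without wild type replicate 1 (-0.43, adjusted p = 0.00515), and its adjusted p ran from 0.00515 to 0.182 over the 8 arrays left out in turn.

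SNF4 read 10.80, 10.91 and 10.95 in Δpde2 cells, 11.09 and 11.00 in Δpde2Δtpk3 cells, and 10.94, 10.96 and 11.30 in wild type cells. The wild type range overlapped those of both mutants, and the Δpde2 arrays lay below those of Δpde2Δtpk3. SNF4 differed by -0.16 between Δpde2 and Δpde2Δtpk3 (SE 0.15, adjusted p = 0.533, 95% confidence interval -0.50 to 0.19), by -0.18 for Δpde2 against wild type (SE 0.13, adjusted p = 0.283, 95% confidence interval -0.49 to 0.12) and by -0.026 for Δpde2Δtpk3 against wild type (SE 0.15, adjusted p = 0.927, 95% confidence interval -0.37 to 0.32). None of these 3 intervals reached a difference of 1 in either direction.

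The β-subunits Sip1p, Sip2p and Gal83p bridge Snf1p and Snf4p, and each steers the kinase to its own place in the cell. Their transcripts did not move alike. SIP2 read 9.97, 9.75 and 9.74 in Δpde2 cells, 11.25 and 10.61 in Δpde2Δtpk3 cells, and 11.77, 11.48 and 11.99 in wild type cells. No arrays overlapped between strains, with Δpde2 lowest, Δpde2Δtpk3 between and wild type highest.

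SIP2 fell 2.15-fold in Δpde2 relative to Δpde2Δtpk3 cells (log2 fold change -1.11, SE 0.23, limma adjusted p = 0.0256). Relative to wild type it fell 3.80-fold in Δpde2 cells (log2 fold change -1.92, SE 0.21, limma adjusted p = 0.000715), and this call held with each array left out in turn, between -2.06 and -1.80. In Δpde2Δtpk3 cells SIP2 stood at -0.82 relative to wild type (SE 0.23, 95% confidence interval -1.36 to -0.27), which was not called (limma adjusted p = 0.113) and was not called with any array left out. The call between the mutants was lost without Δpde2 replicate 1, 2 or 3 (adjusted p = 0.0781, 0.0918 and 0.106) and without Δpde2Δtpk3 replicate 1 or 2 (adjusted p = 0.109 and 0.0501), with differences between -1.43 and -0.79.

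SIP1 followed the same order with smaller steps. It read 9.49, 9.37 and 9.27 in Δpde2 cells, 9.70 and 9.68 in Δpde2Δtpk3 cells, and 10.36, 9.84 and 9.96 in wild type cells. The strains did not overlap, but neighbouring strains in this order did not pass the test. SIP1 fell 1.59-fold in Δpde2 relative to wild type cells (log2 fold change -0.67, SE 0.16, limma adjusted p = 0.0133). That call was lost without Δpde2 replicate 3 (-0.62, adjusted p = 0.0579) and held with each of the other 7 arrays left out. Between Δpde2 and Δpde2Δtpk3 the difference in SIP1 was -0.31 (SE 0.17, adjusted p = 0.290), and it passed without wild type replicate 1 (-0.31, adjusted p = 0.0351), over a range of 0.0351 to 0.552 for the 8 arrays left out. For Δpde2Δtpk3 against wild type it was -0.36 (SE 0.17, adjusted p = 0.297).

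GAL83, the β-subunit gene whose product takes the kinase into the nucleus, was not called in any comparison. It read 11.02, 10.86 and 11.08 in Δpde2 cells, 10.73 and 10.68 in Δpde2Δtpk3 cells, and 11.13, 10.51 and 10.61 in wild type cells. The Δpde2 arrays lay above those of Δpde2Δtpk3, and wild type replicate 1 was above all others. GAL83 differed by 0.28 between Δpde2 and Δpde2Δtpk3 (SE 0.20, adjusted p = 0.398, 95% confidence interval -0.19 to 0.75) and by 0.24 between Δpde2 and wild type (SE 0.18, adjusted p = 0.312, 95% confidence interval -0.18 to 0.65). Between Δpde2Δtpk3 and wild type GAL83 differed by -0.047 (SE 0.20, adjusted p = 0.904, 95% confidence interval -0.52 to 0.42). The differences of Δpde2 cells both passed without wild type replicate 1, at 0.28 (adjusted p = 0.0486, in a range of 0.0486 to 0.681 for the 8 arrays left out) and 0.43 (adjusted p = 0.00659, in a range of 0.00659 to 0.635).

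**Figure D3:**
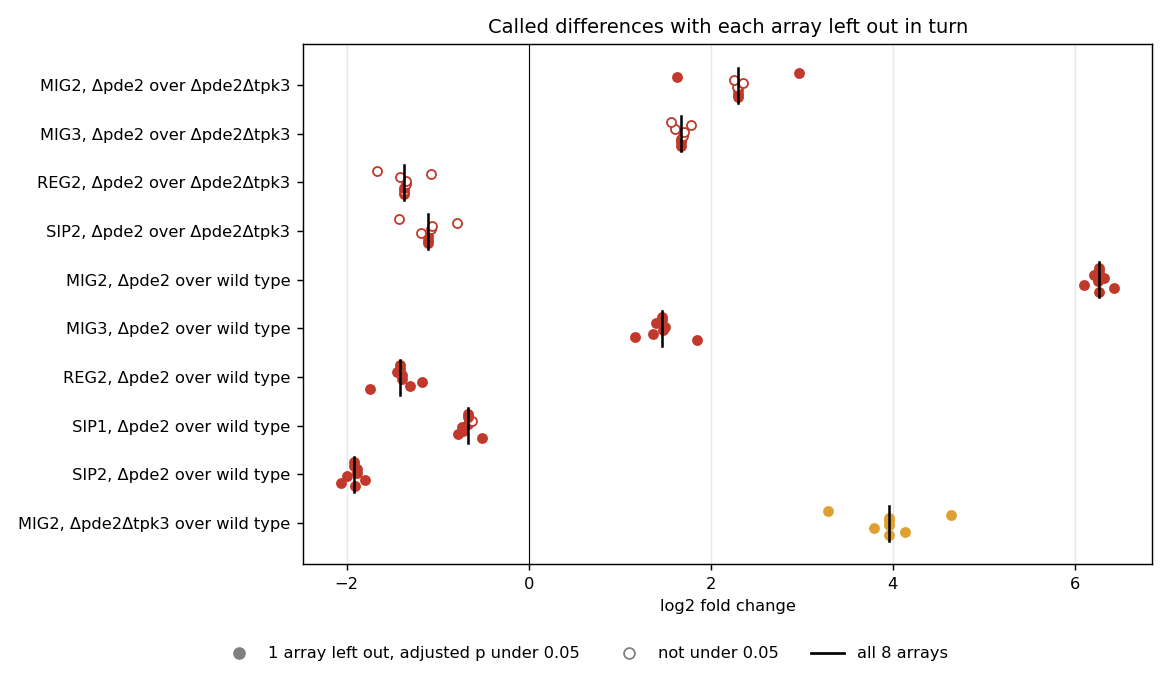
The 10 called differences of the group (log2 fold change), each recomputed with 1 of the 8 arrays left out. Filled points have an adjusted p under 0.05, open points do not, and bars mark the value from all 8 arrays; the 4 calls between Δpde2 and Δpde2Δtpk3 lost their threshold without some arrays while their values kept their sign, whereas 4 of the 5 between Δpde2 and wild type held throughout.

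Of all genes 707 were called between Δpde2 and Δpde2Δtpk3, 53 to 129 with a Δpde2 array left out and 2431 without wild type replicate 1. Fewer were also called with a Δpde2Δtpk3 array left out, of all genes and of the 10. Counted over the 10 genes, the number called between Δpde2 and Δpde2Δtpk3 was 4. It was 0 without any 1 Δpde2 array and 6 without wild type replicate 1. Against wild type it lay between 4 and 7 for Δpde2 with any array left out, and it was 1 throughout for Δpde2Δtpk3. The arrays of the strains did not overlap for 8 of the 10 genes between Δpde2 and Δpde2Δtpk3, for 7 when Δpde2 was set against wild type and for 3 when Δpde2Δtpk3 was. Over all genes tested the arrays did not overlap for 64.6%, 62% and 36.9% in these comparisons.

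The range of the 2 Δpde2Δtpk3 arrays was wider than that of the 3 Δpde2 arrays for 7 of the 10 genes. Replicate 2 read above replicate 1 by 0.98 for MIG1 and by 1.34 for MIG2, and replicate 1 read above replicate 2 by 0.60 for REG2, 0.64 for SIP2 and 0.47 for REG1. For MIG2, REG2 and SIP2 replicate 2 was thus the array closer to Δpde2 cells. The largest range among the 3 Δpde2 arrays was 0.34, for MIG1, and 0.24 or less for each of the other 9 genes. Wild type replicate 1 departed from the mean of the other wild type arrays by 1.15 for MIG3, -1.0 for REG2, -0.93 for REG1, 0.58 for GAL83 and 0.47 for SIP1, and by only -0.0016 for MIG2 and 0.032 for SIP2.

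In the order of protein-coding genes of the RefSeq R64 annotation, MIG2 and SIP2 are direct neighbours, and so are MIG3 and GAL83. The neighbours MIG2 and SIP2 moved opposite ways. MIG2 was higher and SIP2 lower in Δpde2 cells in both comparisons, and the Δpde2Δtpk3 arrays lay between the other strains for both genes. MIG3 rose in Δpde2 cells and GAL83 was not called. On the far side of MIG2, YPT32, a Rab GTPase gene, fell by 0.46 in Δpde2 relative to wild type cells (SE 0.11, adjusted p = 0.0146), and SPT16, a histone chaperone gene beyond SIP2, differed by -0.17 (SE 0.15, adjusted p = 0.381). Beyond MIG3, SMB1, a spliceosome component gene, rose by 1.11 in Δpde2 relative to wild type (SE 0.25, adjusted p = 0.0121), and CHO1, the phosphatidylserine synthase gene beyond GAL83, differed by -0.38 (SE 0.15, adjusted p = 0.0841). None of YPT32, SPT16, SMB1 and CHO1 was called between Δpde2 and Δpde2Δtpk3.

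**Figure D4:**
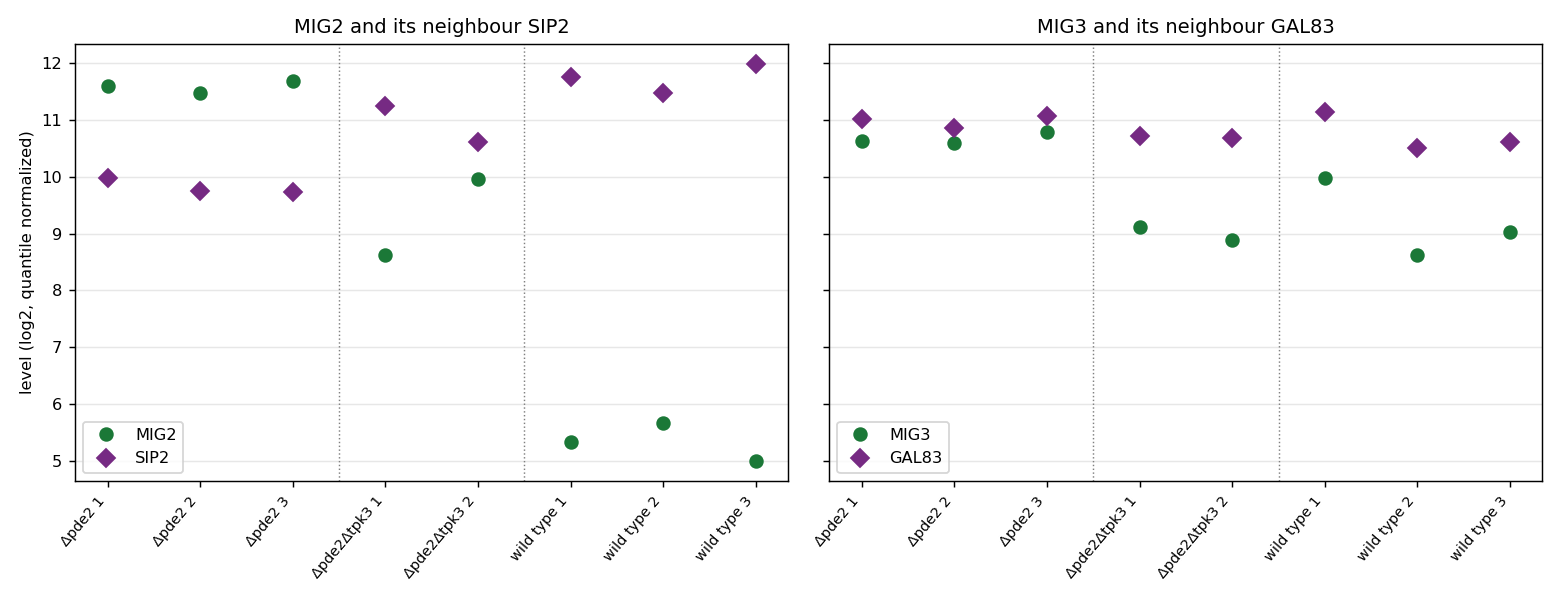
Levels (log2, quantile normalized) of the neighbouring genes MIG2 and SIP2 and of MIG3 and GAL83 on each array, with the Δpde2 arrays at the left, Δpde2Δtpk3 in the middle and wild type at the right. Heights cannot be compared between genes; across strains MIG2 steps down where SIP2 steps up, and on the Δpde2Δtpk3 arrays MIG2 reads 8.61 and 9.96 while SIP2 reads 11.25 and 10.61.

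The pathway around these genes was followed in 6 lists with 67 measured genes in all, 1 further listed gene not being analysed here. Some genes stand in more than 1 list, and the study named several of them as changed on these arrays, so the directions are not independent evidence. Of the 67 genes, 21 were called between Δpde2 and Δpde2Δtpk3 (1 higher, 20 lower), 45 in Δpde2 relative to wild type (15 higher, 30 lower) and 10 in Δpde2Δtpk3 relative to wild type (5 higher, 5 lower), beside the 13%, 41.4% and 2.72% of all genes. The count between Δpde2 and wild type stayed at 37 to 52 with any array left out. That between Δpde2 and Δpde2Δtpk3 was 36 without wild type replicate 1, 3, 8 and 3 with Δpde2 replicate 1, 2 or 3 left out, and 5 and 9 with replicate 1 or 2 of Δpde2Δtpk3 left out. That between Δpde2Δtpk3 and wild type was 25, 5 and 0 without wild type replicates 1, 2 and 3. It was 0, 1 and 0 with Δpde2 replicate 1, 2 or 3 left out, and 4 and 0 with replicate 1 or 2 of Δpde2Δtpk3 left out.

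A list of 11 genes held those for the partners of Snf1p, its activating kinases and its phosphatases. None was called between Δpde2 and Δpde2Δtpk3 in limma (2 had an unadjusted p under 0.05), 5 were called in Δpde2 relative to wild type and 1 in Δpde2Δtpk3 relative to wild type, where 13%, 41.4% and 2.72% of all genes were called in these comparisons. HXK2, the hexokinase needed for glucose repression, rose by 1.51 in Δpde2 relative to wild type cells (adjusted p = 0.00192). STD1, an activator of Snf1p and a regulator of glucose sensing, was 1.20 higher (adjusted p = 0.00335), and ELM1, a kinase that can activate Snf1p, was 1.14 higher (adjusted p = 0.00330). SIP5, whose product binds Reg1p and Snf1p, was 0.54 higher (adjusted p = 0.0259), but kept its call with only 3 of the 8 arrays left out (adjusted p up to 0.0904). STD1 was also 1.61 higher in Δpde2Δtpk3 than in wild type (adjusted p = 0.0194, up to 0.0933 with single arrays left out). The 5 calls between Δpde2 and wild type became 3 without Δpde2 replicate 1 or 3, and the 0 calls between the mutants became 4 and 1 without wild type replicates 1 and 2.

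Of 8 other repressors and co-repressors, RGT1 was called in all 3 comparisons and the other 7, which include TUP1 and CYC8, in none. Of all genes 13% were called for Δpde2 against Δpde2Δtpk3, 41.4% for Δpde2 against wild type and 2.72% for Δpde2Δtpk3 against wild type. RGT1 encodes the repressor of hexose transporter genes. It read 10.27, 10.19 and 10.14 in Δpde2 cells, 10.95 and 10.67 in Δpde2Δtpk3 cells, and 11.85, 11.49 and 11.53 in wild type cells. The 3 strains did not overlap. RGT1 fell by 0.61 in Δpde2 relative to Δpde2Δtpk3 (SE 0.16, adjusted p = 0.0454), by 1.43 relative to wild type (SE 0.14, adjusted p = 0.000551) and by 0.81 in Δpde2Δtpk3 relative to wild type (SE 0.16, adjusted p = 0.0466). The call relative to wild type in Δpde2 held with every array left out, and the other 2 held only without wild type replicate 1, with adjusted p up to 0.198 and 0.274. Without wild type replicate 1 the list had 3 calls between Δpde2 and wild type.

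Among 11 activators that work downstream of Snf1p, 6 were called lower in Δpde2 relative to Δpde2Δtpk3 cells and none higher. Of all genes 7.41% were called lower and 5.56% higher. The list median was -0.86 against 0.016 for all genes. The largest falls were in GSM1 (-1.34, adjusted p = 0.0246), USV1 (-1.31, adjusted p = 0.0138), CAT8 (-1.18, adjusted p = 0.0314) and SIP4 (-1.01, adjusted p = 0.0424), whose adjusted p reached up to 0.174 with single arrays left out. CAT8 and SIP4 encode activators of gluconeogenic genes. CAT8 read 9.86, 9.53 and 9.53 in Δpde2 cells, 10.99 and 10.66 in Δpde2Δtpk3 cells, and 10.91, 11.52 and 11.76 in wild type cells, so its Δpde2 arrays lay below the 5 others. Without Δpde2 replicates 1, 2 and 3 the 6 calls became 0, 0 and 1, and without Δpde2Δtpk3 replicates 1 and 2 they became 1 and 0. Relative to wild type 7 were called lower in Δpde2 cells and 1 higher, beside 21.9% and 19.5% of all genes, with a median of -0.95. CAT8 (-1.76, adjusted p = 0.00154), RDS2 (-1.47, adjusted p = 0.000279) and GSM1 (-1.46, adjusted p = 0.00362) fell, and MSN4, a stress response activator, rose by 1.39 (adjusted p = 0.00156).

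Genes known to be repressed through Mig1p or Mig2p (14 measured) went in both directions. Between Δpde2 and wild type 7 were called higher and 3 lower, where 19.5% and 21.9% of all genes were. Between Δpde2 and Δpde2Δtpk3 none was called higher and 2 lower, where 5.56% and 7.41% of all genes were. Between Δpde2Δtpk3 and wild type 3 were called higher and none lower, where 1.03% and 1.69% of all genes were. With single arrays left out these counts of calls ran from 6 to 11, from 0 to 6 and from 0 to 9. HXT2, a hexose transporter gene, read 13.69, 13.60 and 13.90 in Δpde2 cells, 12.41 and 12.82 in Δpde2Δtpk3 cells, and 9.91, 7.36 and 7.11 in wild type cells. The wild type arrays lay lowest, with replicate 1 far above the other two. HXT2 rose by 5.60 in Δpde2 relative to wild type (SE 0.68, adjusted p = 0.00111) and by 4.48 in Δpde2Δtpk3 relative to wild type (SE 0.76, adjusted p = 0.0332, up to 0.237 with single arrays left out).

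MTH1, a co-repressor with Rgt1p, rose by 1.80 (adjusted p = 0.000417) and YKR075C by 1.79 (adjusted p = 0.000584) in Δpde2 relative to wild type. The gluconeogenic FBP1 fell by 2.25 (adjusted p = 0.000590) in the same comparison. FBP1 also fell by 1.65 in Δpde2 relative to Δpde2Δtpk3 cells (adjusted p = 0.0138, up to 0.0618 with single arrays left out). The count of 6 calls against wild type, in place of 10, came without Δpde2 replicate 2.

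Genes derepressed through Cat8p and Adr1p (19) were lower in Δpde2 cells. Relative to wild type 18 of 19 were called lower and none higher, beside 21.9% and 19.5% of all genes. The list median was -1.89 against 0.031 for all genes, and 17 to 19 were called with any array left out. The largest falls were in ADH2, the ethanol-oxidising alcohol dehydrogenase (-3.20, adjusted p = 0.000529), ACS1, an acetyl-CoA synthetase (-2.85, adjusted p = 0.000417), POX1, the first enzyme of fatty acid oxidation (-2.83, adjusted p = 0.00181), and SFC1, the succinate-fumarate carrier (-2.32, adjusted p = 0.000584). Relative to Δpde2Δtpk3 12 were called lower and none higher, beside 7.41% and 5.56% of all genes, with a median of -1.12. These were led by SFC1 (-2.07, adjusted p = 0.00786), the malate synthase gene MLS1 (-1.85, adjusted p = 0.00401) and FBP1. IDP2, the isocitrate dehydrogenase gene, came next (-1.50, adjusted p = 0.0138). It lost its call in this comparison without Δpde2 replicate 1 or 3 or Δpde2Δtpk3 replicate 1. SFC1 and MLS1 kept that call with each of the 8 arrays left out, while the count of 12 became 3, 7 and 2 without Δpde2 replicates 1, 2 and 3 and 4 without Δpde2Δtpk3 replicate 1. In Δpde2Δtpk3 relative to wild type 4 were called lower and none higher, beside 1.69% and 1.03% of all genes, with a median of -0.62. Between 0 and 5 were called with 1 wild type or Δpde2 array left out.

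In the glucose sensing and Rgt1p branch (12 genes) 7 were called higher and 3 lower in Δpde2 relative to wild type, with a median of 0.93. Of all genes 19.5% were called higher and 21.9% lower. The rises were largest in the hexose transporter genes HXT2, HXT1 (3.89, adjusted p = 0.000525) and HXT3 (2.97, adjusted p = 0.00156). HXT1 encodes a low affinity transporter induced by high glucose. It read 11.18, 11.29 and 11.26 in Δpde2 cells, 8.29 and 8.05 in Δpde2Δtpk3 cells, and 8.31, 6.83 and 6.92 in wild type cells. The Δpde2 arrays stood apart from all others. HXT1 was the only gene of the lists called higher in Δpde2 relative to Δpde2Δtpk3 cells (3.07, SE 0.42, adjusted p = 0.00983). It lost that call without Δpde2 replicate 1 or 3 or either Δpde2Δtpk3 array. Others were higher but not called, among them HXT2 (1.12, adjusted p = 0.384) and HXT3 (0.79, adjusted p = 0.293). SNF3, a glucose sensor gene, fell by 1.06 in the same comparison (adjusted p = 0.0138, up to 0.0830 with single arrays left out).

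**Figure D5:**
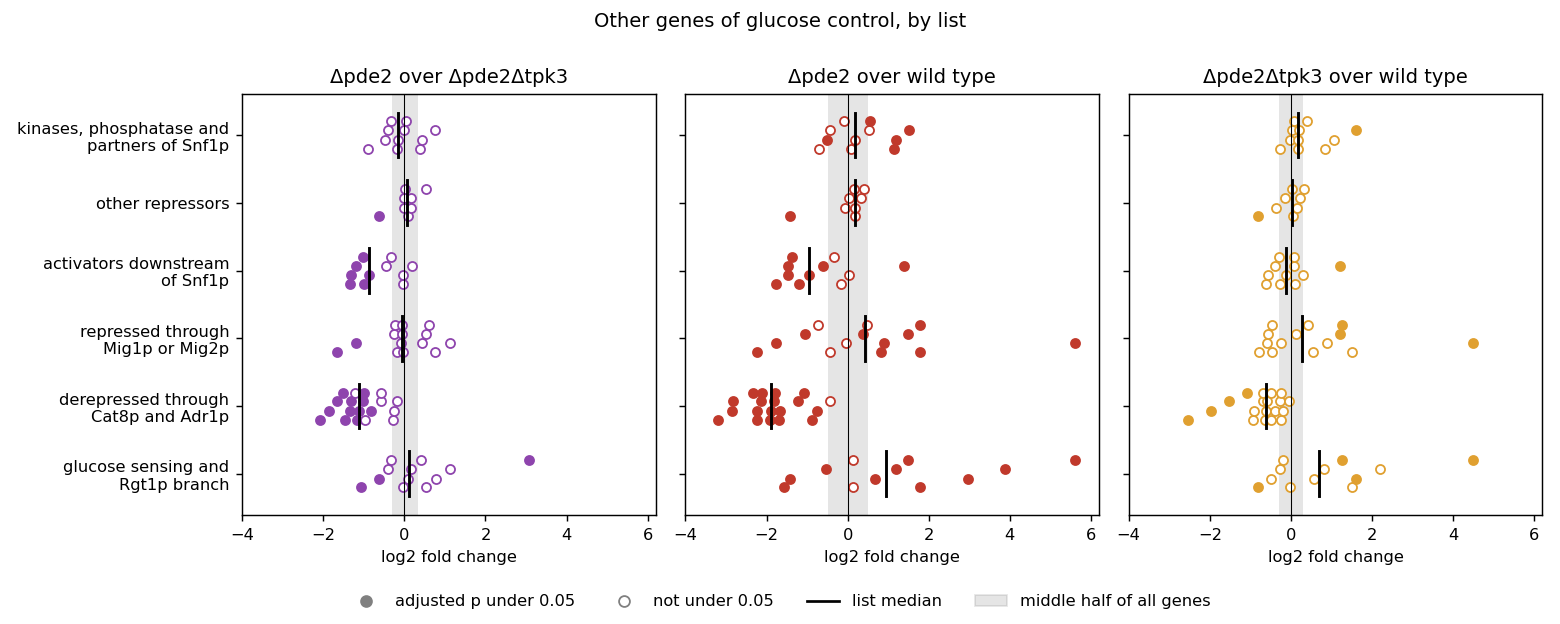
Differences (log2 fold change) of the genes of the 6 pathway lists in the 3 comparisons, 1 point a gene, filled where the adjusted p is under 0.05. Black bars mark list medians and the grey band spans the lower to the upper quartile of all genes; the genes derepressed through Cat8p and Adr1p lie to the left, with a median of -1.89 for Δpde2 over wild type.

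The genes whose levels followed each called member most closely over the 8 arrays were listed by Pearson's r. These r values pool the 3 strains, so they mainly restate which genes share the same order of strains, and they are a description. For MIG2 they were IES5, a subunit gene of the INO80 chromatin remodeller (r = 0.995), MTH1 (r = 0.992) and YKR075C (r = 0.992), and 6.04% of all genes had an r above 0.9. For MIG3 they were the Mediator subunit gene MED6 (r = 0.990), RIM9 (r = 0.985) and the farnesyltransferase subunit gene RAM1 (r = 0.984). For REG2 they were PBI2, a proteinase B inhibitor gene (r = 0.991), the glycogenin gene GLG1 (r = 0.985) and COX6, a cytochrome c oxidase subunit gene (r = 0.984).

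For SIP2 the closest genes were CRC1, the mitochondrial carnitine carrier (r = 0.997), the phosphatidylinositol kinase gene STT4 (r = 0.994) and YMR206W (r = 0.992). For SIP1 they were YPR003C (r = 0.993), CIN1, a tubulin folding factor gene (r = 0.993), and the dynein heavy chain gene DYN1 (r = 0.992). Genes with an r above 0.9 made up 9.89% of all genes for SIP2 and 10.9% for SIP1, against 3.10% for REG2 and 4.79% for MIG3. The ranks of these genes changed without wild type replicate 1, the only array that was left out for this listing. Without it, CRC1 was still first for SIP2, but the other 14 of these 15 genes were no longer among the 3 closest to their member. RAM1, for example, stood at rank 47 for MIG3 and IES5 at rank 13 for MIG2. Their r without that array was 0.984 and 0.994, and the r of all 15 genes was 0.984 or above.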

How the data were processed

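RNA from 8 cultures of 3 strains had been hybridised to Affymetrix Yeast Genome 2.0 arrays. The authors deposited a table of log2 signals for 5814 probe sets. The study's methods name dChip for quality control and Limma for statistics, and the summarization, background correction and normalization are not given in the sources used here. The first quartiles of the deposited columns differed by up to 0.39 (9.00 to 9.38), so the values were quantile normalized again. Of the probe sets 5498 pair with 1 gene and 316 with none, which were left out. Of 12 genes the symbol was updated to RefSeq R64. Where a gene had more than 1 probe set (47 genes), that with the highest mean was kept, leaving 5449 genes. Culture descriptions give triplicates of both mutants, and a further Δpde2Δtpk3 array was not analysed here.

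A limma 3.58.1 fit under R 4.3.3 (lmFit and eBayes, 5 residual degrees of freedom, no covariate) compared the 3 strains, with Benjamini-Hochberg adjustment over all genes. Confidence intervals (95%) are those of the fit. The number of arrays limits the precision. The code was tested on simulated data in which each gene had 1 SD on all arrays, unlike the arrays here. Of simulated log2 differences of 1, between 50.3% and 59.4% were called over the 3 comparisons. Between 5.59% and 6.35% of the calls were false. The 10 genes and the 6 pathway lists were chosen with earlier results of these data known. All 10 genes were named, with up to 4 called genes of each list by size of difference and the 3 genes most like each called member. YPT32, SPT16, SMB1, CHO1, TUP1 and CYC8 and the levels shown of list genes were added after their values were seen. Alternatives were the deposited values, median centring, normalization without wild type replicate 1, a filter on dim genes, averaging the probe sets of a gene, fitting 2 strains at a time, eBayes with trend and robust options, weights for each array, the replicate number as a block and leaving out each array in turn.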

Additional observations from a re-analysis of the deposited data

How the results depend on the processing

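The calls for Δpde2 against wild type in MIG2, MIG3, REG2, SIP1 and SIP2 held under every alternative setting that tested them, as did those of all but SIP1 with each array left out, while the calls between the mutants depended on which arrays were in the fit. With 1 array left out the number of the 10 genes called ran from 0 to 6 for Δpde2 against Δpde2Δtpk3, from 4 to 7 for Δpde2 against wild type and stayed at 1 for Δpde2Δtpk3 against wild type. For the pathway lists the counts ran from 3 to 36, from 37 to 52 and from 0 to 25. The filter on dim genes removed MIG2 and MIG3 from the test, so the calls among the 10 genes became 2 for Δpde2 against Δpde2Δtpk3 and 0 for Δpde2Δtpk3 against wild type. Array weights gave 9 calls for Δpde2 against wild type and 2 for Δpde2Δtpk3 against wild type, and fitting only the 2 strains compared gave 0 for the last. Of the list genes 32 were called under array weights, 36 with only the 2 strains compared and 36 with normalization repeated without wild type replicate 1 for Δpde2 against Δpde2Δtpk3, and 23, 1 and 25 for Δpde2Δtpk3 against wild type.

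Over all genes, array weights called 1772, 3901 and 739 genes for Δpde2 against Δpde2Δtpk3, Δpde2 against wild type and Δpde2Δtpk3 against wild type, in place of 707, 2257 and 148. Fitting only the 2 strains compared called 2310 and 10 for the comparisons of Δpde2 and wild type with Δpde2Δtpk3, and normalization without wild type replicate 1 called 2430 and 979. With 1 Δpde2 or wild type array left out, 53 to 2431 of all genes were called for Δpde2 against Δpde2Δtpk3. The cause of these changes was not tested.

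Deviations of same-numbered arrays of different strains correlated between -0.091 and 0.19, and those of differently numbered arrays between -0.19 and 0.19. With 2 or 3 arrays a strain, these values cannot decide whether the numbers pair the samples. With the replicate number as a block the 10 genes gave 0 calls for Δpde2 against Δpde2Δtpk3, 5 for Δpde2 against wild type and 0 for Δpde2Δtpk3 against wild type (MIG2 had an adjusted p of 0.0658 between the mutants and 0.0556 for the last), the lists gave 0, 41 and 0, and all genes gave 1, 1887 and 5. Under the block the difference was 0.0081 for MIG1 between Δpde2 and Δpde2Δtpk3, and 0.096 for REG2 and 0.049 for SNF4 between Δpde2Δtpk3 and wild type, each with the opposite sign and none called.

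Signs also turned for small, uncalled differences between Δpde2Δtpk3 and wild type. MIG3 was 0.050 and 0.16 under array weights and under normalization without wild type replicate 1, REG1 -0.089 and -0.066, and GAL83 0.11 and 0.14. With 1 array left out, some values turned sign, and all 8 values ran from -0.51 to 0.17 for MIG3, -0.068 to 0.48 for REG1, -0.37 to 0.26 for REG2, -0.090 to 0.090 for SNF4 and -0.17 to 0.15 for GAL83 in that comparison, and from -0.54 to 0.44 for MIG1 and -0.087 to 0.38 for REG1 between Δpde2 and Δpde2Δtpk3. An order of the 10 genes by level was not computed, since probes of different genes cannot be compared.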
